A study of Schizosaccharomyces pombe with 16 samples.

Results

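The *mug* (meiotically upregulated) genes of the fission yeast *Schizosaccharomyces pombe* were followed in 16 RNA sequencing libraries. Members were the protein-coding features of the count table whose gene name in the study's supplementary tables was *mug* followed directly by a number, with *mug14* and *mug108* left out. This gave 77 genes of 5172 protein-coding features, and of 7019 features in all. By position, 41 members were on chromosome I, 20 on chromosome II and 16 on chromosome III.

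The libraries came from haploid cells grown for 4 h at 32 °C in rich YES medium with 3% glucose, washed, and shifted for another 4 h to 1 of 4 media. Wild type cells (h-) were sequenced in duplicate in 3% glucose, in 3% sucrose, in 3% glycerol with 0.1% glucose (glucose-deficient) and in 3% glycerol alone (glucose-starved). Cells without the repressor Scr1 were sequenced in glucose and sucrose only, in duplicate for each of 2 genotypes, a *scr1*::*ura4*+ disruption in an h- *ura4*-d18 *leu1*-32 *ade6*-m216 background and a *scr1*::kanMX6+ deletion. The study pooled both genotypes as the *scr1*- mutant, which gives 4 mutant libraries per medium. Scr1 is a zinc finger protein that holds down genes for the use of other carbon sources while glucose is plentiful. As labelled, the disruption strain carries auxotrophic markers that are not given for the wild type. The effects of these markers and of losing Scr1 cannot be told apart in it. The study's methods name, among its wild type strains, a parent of the diploid that gave the deletion. Diploids were selected there by complementation of *ade6* alleles, so *ade6* markers in other libraries are not excluded.

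Fission yeast cells that run out of nutrients leave the mitotic cycle, mate with a cell of the other mating type, pass through meiosis and form spores. The transcription factor Ste11 starts this programme, the RNA-binding protein Mei2 commits the cell to meiosis, and the forkhead factor Mei4 then switches on many genes of the meiotic divisions and of spore formation, which it binds at a short sequence called FLEX. The *mug* genes were named in a large survey of transcripts that rise during meiosis. The name records that timing and no common function, and many of the encoded proteins are still uncharacterized. The cells sequenced here were haploids, labelled with a single mating type in wild type and disruption cultures. By these labels *mug* transcripts were measured outside meiosis, but whether any cells were in meiosis was not measured.

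Of the 77 members, 38 had no described function, 11 belonged to membrane traffic and transport, 9 were enzymes, 6 belonged to the spore wall, the cytoskeleton or chromosomes, 5 to signalling, 4 to RNA binding and splicing, and 4 to a group of chaperone, stress and mitochondrial translation proteins. Annotations are those of the study's tables. In the reference annotation, 13 members carry a newer name, such as *mug134*, now *igo1*, *mug190*, now *tcb2*, and *mug180*, now *say1*.

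Being a member was not independent of the outcome for every gene. The copies of the supplementary tables used here end before their last rows, and most of their sheets are ordered or filtered by fold change, so that genes that rose were more likely to be listed. Only 1 sheet follows the order of the genome, and it lists 30 of the members. A further 25 genes are named *mug* in the reference annotation and are not among the members. Counts for both of these lists are given beside those of the members. For glucose-starved cells, shares are also given for the 89 *mug*-named genes of the reference annotation, without *mug14* and *mug108*.

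All libraries together had between 14305848 and 18607823 counts each, and 3 counts, taken as the floor, amounted to 0.161 to 0.21 CPM (counts scaled to a common library size) by library totals. The libraries were made in 3 batches. Batch A (5 libraries) was unstranded and batches B and C (11 libraries) were stranded, and no glucose-starved library was unstranded. Per the methods of the study, the replicates of each strain and medium were independent biological replicates. The *scr1* feature itself had 20.8 to 35.7 CPM in wild type cells in glucose and sucrose and 88.8 to 125 CPM in the libraries labelled *scr1*-. The study describes the deletion as complete, made with DNA that flanks the coding sequence, but the deletion libraries had 88.8 to 112 CPM. How much of the counted feature either mutation leaves is not stated beyond this, and the cause of these counts was not tested. The counts therefore do not check the labels. Of 7 mating-type genes looked at, *map3* and *mfm2* set 2 libraries apart most clearly. The second disruption libraries in glucose and sucrose had 55.7 and 47.6 CPM of *map3*, the receptor of h+ cells, and 4.10 and 2.74 CPM of *mfm2*, a pheromone gene of h- cells. In the other stranded libraries of glucose and sucrose, *map3* had 12.3 to 16.5 CPM and *mfm2* 41.9 to 271 CPM. Mutant results are therefore also given without both of these libraries, an alternative chosen after seeing the data.

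The sequences before 6 members are shown because they carry, or lack, the short sequences at which regulators of meiosis and of carbon use bind. Each is the 250 bases before the annotated start in the count table, 5′ to 3′ on the gene's strand, read from RefSeq's ASM294v3 genome. The authors' build was ASM294v2.25, and 5277 of the 5323 introns of protein-coding features in the count table began with GT and ended with AG at the same coordinates of ASM294v3 (99.1%). Capitals mark a match, on either strand, to FLEX (GTAAACA), to the core of the cyclic AMP response element bound by Atf1 (TGACGT) or to 1 of 8 hexamers of the Scr1 and Mig1 type (CCGGAG or CCGGGG or CTGGAG or CTGGGG or GCGGAG or GCGGGG or GTGGAG or GTGGGG).
*mug147*, chrII:4106014-4106263, minus strand, 1 core and 1 hexamer: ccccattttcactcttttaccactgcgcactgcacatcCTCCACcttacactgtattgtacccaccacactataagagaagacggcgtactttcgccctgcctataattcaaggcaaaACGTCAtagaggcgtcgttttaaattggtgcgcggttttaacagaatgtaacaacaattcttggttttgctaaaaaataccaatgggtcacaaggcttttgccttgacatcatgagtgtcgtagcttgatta
*mug143*, chrI:1549800-1550049, plus strand, 3 cores and 1 FLEX: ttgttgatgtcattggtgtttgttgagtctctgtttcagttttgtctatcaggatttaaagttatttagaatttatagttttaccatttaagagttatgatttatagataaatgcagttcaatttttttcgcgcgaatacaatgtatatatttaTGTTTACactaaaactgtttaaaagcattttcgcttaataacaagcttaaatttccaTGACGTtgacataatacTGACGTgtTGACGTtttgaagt
*mug146*, chrIII:202708-202957, minus strand, no match: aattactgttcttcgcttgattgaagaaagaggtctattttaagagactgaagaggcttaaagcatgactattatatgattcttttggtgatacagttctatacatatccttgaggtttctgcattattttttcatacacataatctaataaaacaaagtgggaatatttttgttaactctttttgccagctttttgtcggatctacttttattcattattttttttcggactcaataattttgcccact
*mug114*, chrI:2665036-2665285, minus strand, no match: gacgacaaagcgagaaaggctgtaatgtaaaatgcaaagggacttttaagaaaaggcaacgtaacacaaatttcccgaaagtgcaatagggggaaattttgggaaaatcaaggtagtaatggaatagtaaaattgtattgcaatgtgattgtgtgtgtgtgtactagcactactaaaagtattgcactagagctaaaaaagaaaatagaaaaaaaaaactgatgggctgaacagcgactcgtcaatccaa
*mug73*, chrIII:624528-624777, minus strand, 3 FLEX: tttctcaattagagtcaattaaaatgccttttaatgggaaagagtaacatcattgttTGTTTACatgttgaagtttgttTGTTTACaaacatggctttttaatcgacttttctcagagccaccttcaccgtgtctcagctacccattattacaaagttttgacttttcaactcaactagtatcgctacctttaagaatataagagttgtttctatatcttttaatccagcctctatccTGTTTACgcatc
*mug94*, chrI:1218888-1219137, minus strand, 3 FLEX and 1 hexamer: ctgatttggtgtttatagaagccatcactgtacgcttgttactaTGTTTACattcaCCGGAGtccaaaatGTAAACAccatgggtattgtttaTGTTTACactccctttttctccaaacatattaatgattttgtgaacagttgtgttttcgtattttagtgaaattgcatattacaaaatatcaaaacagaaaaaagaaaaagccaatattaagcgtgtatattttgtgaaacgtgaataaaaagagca

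FLEX was common before *mug* genes. It was found before 28 of the 77 members (36.4%), before 10 of the 30 listed by position (33.3%) and before 13 of the 25 other *mug*-named genes (52.0%), against 744 of 5151 protein-coding features with a sequence of this length (14.4%). Among the 29 members that were higher in glucose-starved cells, described further on, 6 had FLEX (20.7%). The Atf1 core was found before 8 members (10.4%), 2 of the 30 listed by position (6.67%) and 0 of the 25 other *mug*-named genes. The share over all features was 4.56%. Of the 29 members that rose, 4 had the core (13.8%). *mug143*, which rose and encodes a protein without known relatives (a sequence orphan), held all 3 of its copies between 39 and 9 bases before its annotated start. Scr1-type hexamers were found before 7 members (9.09%) and 13.4% of all features. The sequence TTCTTTGTT, bound by Ste11, was found before 1 member, *mug99*, and CCCCTC, bound by Rst2, the activator of genes for the use of other carbon sources, before 0 members, against 1.75% and 1.59% of all features. These are matches of letters, and binding was not measured here.

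Most *mug* genes were expressed at low levels. Over the 11 stranded libraries, the median member had a mean level of 11.8 CPM per kilobase, against 29.2 CPM per kilobase for all protein-coding features, and 13 of the 77 members (16.9%) were under 1 CPM per kilobase, against 2.76% of all. By the mean over all 16 libraries, the highest members were *mug168*, *mug134*, *mug64*, *mug106* and *mug33*, with 248, 125, 119, 96.7 and 83.8 CPM per kilobase. The first of these is a sequence orphan, *mug134* encodes an endosulfine that inhibits protein phosphatase 2A, *mug64* a BAR domain protein, and *mug33* a protein of the secretory route along actin cables. The lowest were *mug45*, *mug10*, *mug133*, *mug96* and *mug116*, with 1.16, 1.07, 1.02, 0.185 and 0.184 CPM per kilobase. Both orders change with the libraries used. Over the 11 stranded libraries, *mug106* had 29.3 CPM per kilobase and *mug143* took its place among the highest 5 with 111, and the lowest were *mug62*, *mug112*, *mug93*, *mug128* and *mug55*, with 0.0637 to 0.0877 CPM per kilobase. *mug96* and *mug116* had at most 0.701 and 0.469 CPM in any library and did not pass the filter on low counts, which left 75 members tested.

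**Figure D1:**
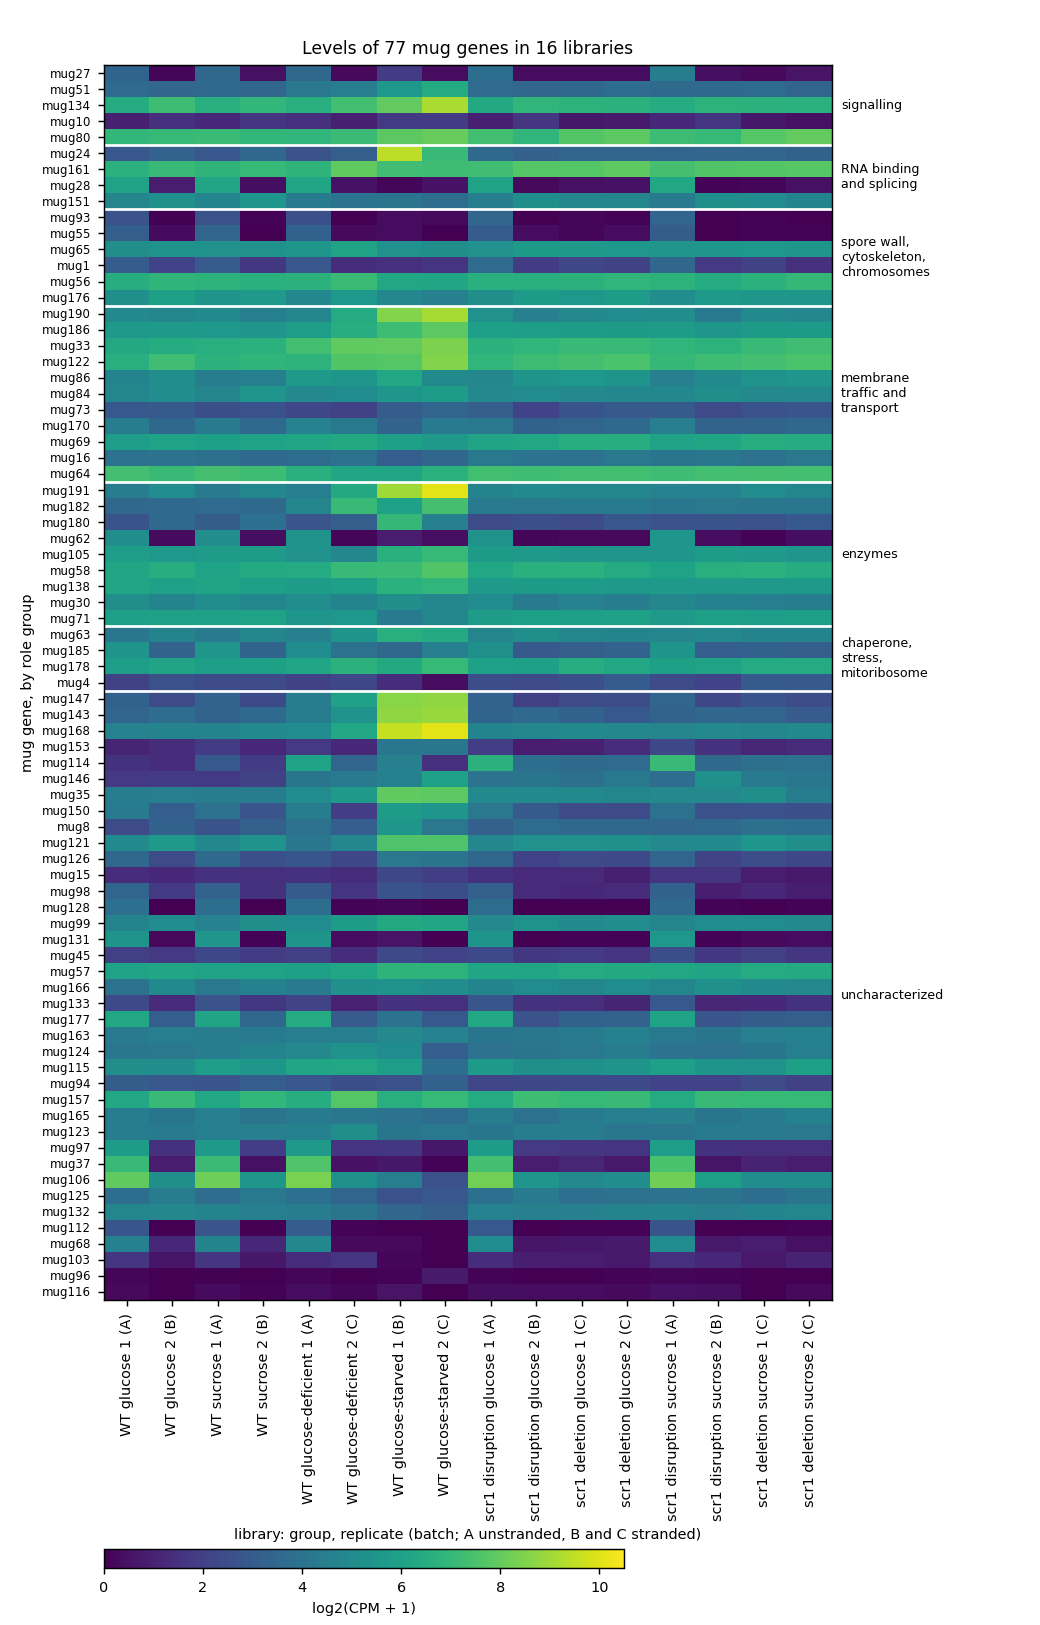
Levels of the 77 *mug* genes (rows, by role group and, within it, by the change in glucose-starved cells) in the 16 libraries (columns, with replicate and batch), as log2(CPM + 1) in colour. Genes such as *mug168* and *mug191* are bright only in both glucose-starved libraries, while rows such as *mug28*, *mug37* and *mug131* are bright only in the 5 unstranded libraries of batch A.

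Many members differed between the unstranded and the stranded libraries. All unstranded libraries are of batch A, so library type and batch cannot be told apart. In wild type and disruption cells in glucose and sucrose, each medium and genotype had 1 unstranded library (batch A) and 1 stranded library (batch B). In 15 of the 77 members (19.5%) the unstranded value was more than 4 times the stranded one, or the floor of 3 counts where that was higher, in all 4 such pairs, against 181 of 5172 protein-coding features (3.5%). An unstranded library counts reads of both strands, and all 15 members had an annotated feature on the other strand over 19.5% to 100% of their length (median 100%). Such a feature was present in 35 of the other 62 members, with a median of 3.24% of the length. *mug28*, an RNA-binding protein needed for the membrane that encloses spores, lies within *mrp17* on the other strand. It had 64.3 to 74.9 CPM in the 5 unstranded libraries and 0.0702 to 0.803 CPM in the 11 stranded ones, while *mrp17* had 77.7 to 91.3 and 54.6 to 126.1 CPM. *mug27*, the meiosis-specific kinase Slk1 that acts on the same membrane, had 9.51 to 20.2 CPM in unstranded libraries. In stranded libraries it had 2.61 CPM in the first glucose-starved library and 0.115 to 0.457 CPM in the others. *mug37* (133 to 196 against 0.0876 to 1.18 CPM), *mug62*, *mug131*, *mug128*, *mug93*, *mug112*, *mug55* and *mug68* behaved alike, and none of these genes had more than 1.29 CPM in a stranded library. A transcript of the member itself and one of its neighbour cannot be told apart in batch A. Some members also overlap each other on opposite strands, namely *mug55* with *mug163*, *mug57* with *mug97* and *mug58* with *mug177*, and *mug86* and *mug116* overlap on the same strand.

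**Figure D2:**
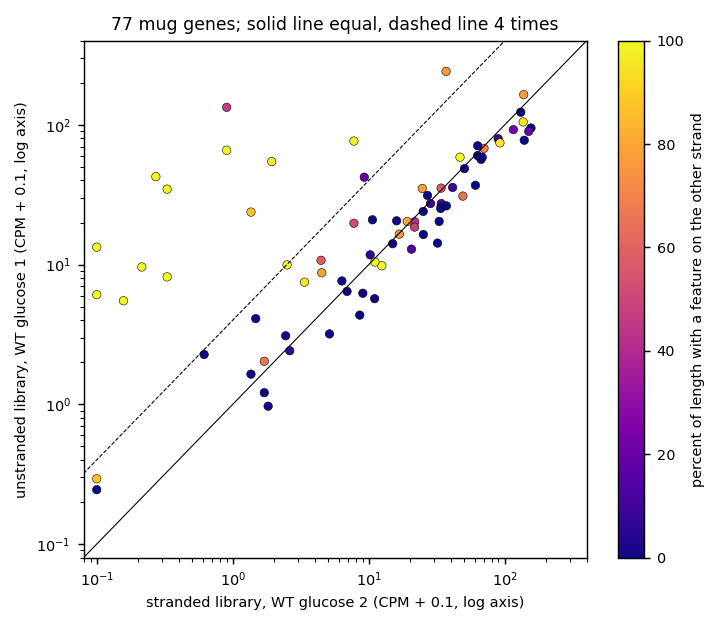
Level of the 77 *mug* genes in the unstranded (vertical axis) and the stranded (horizontal axis) library of wild type cells in glucose, both as CPM + 0.1 on log axes, coloured by the percentage of the gene's length that has a feature on the other strand. Points above the dashed line, more than 4 times higher in the unstranded library on this scale, are genes overlapped on the other strand, and *mug103*, which has no such overlap (2.17 against 0.516 CPM), lies just under it.

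To ask which *mug* genes respond to the carbon source, wild type cells were compared between media in 1 edgeR quasi-likelihood fit of all 16 libraries with batch as a term, with adjustment of p-values across the 6691 features that entered the test. To be called higher or lower, a gene needed a change of more than 1 on the log2 scale and an adjusted p-value below 0.05. Members past this threshold are described by name where they are few. In longer lists the largest rises and falls are, with the highest and lowest members, the UPF0300 family, *mug27*, *mug28* and *mug134*, and any further gene is an example chosen after its values were seen.

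Sucrose changed no member past the threshold. In wild type cells 0 of 75 members were called higher or lower in sucrose against glucose by edgeR, 0 had an unadjusted p-value under 0.05 and 0 were called by DESeq2, where 0.0195% of all protein-coding features were called higher and 0% lower. Log2 fold changes of the members lay between -0.45 and 1.21, the latter for *mug114*.

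CPM is a share of the RNA of a culture, so more cells that express a gene and more of its RNA in each cell cannot be told apart. In glucose-deficient cells, 6 *mug* genes were higher than in glucose and 1 was lower, of 75 tested (8% and 1.33%). The background was 4.21% of protein-coding features higher and 2.49% lower. Of the 29 tested members listed by position, 1 was higher and 0 lower, and of the 24 tested *mug*-named genes outside the list none was called. The median log2 fold change was 0.17 for the members, 0.22 for those listed by position, -0.06 for the genes outside the list and 0.03 for all protein-coding features. Scaling by library totals in place of TMM moved the median of all protein-coding features to -0.24 and that of the members to -0.08, and it called 5 members higher and 3 lower. By a count without a test, both glucose-deficient libraries lay above both glucose libraries in 24% of members and below them in 12%, against 24.6% and 23% of protein-coding features.

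*mug114*, an orphan, had 1.93 and 1.61 CPM in glucose, against 68.1 and 9.71 CPM in glucose-deficient cells, where the first value of each pair is from the unstranded batch A. Its log2 fold change was 4.49 (SE 0.90, edgeR adjusted p = 0.00701), and 3.36 with an adjusted p of 0.165 in a fit of the stranded libraries alone. *hxk2*, a hexokinase gene, and a non-coding RNA lie on the other strand over 64.9% of *mug114*, and *hxk2* had 878 and 773 CPM in glucose, against 2394 and 1647 CPM in glucose-deficient cells. *mug146*, also uncharacterized, rose from 2.32 and 2.52 CPM to 16.1 and 19.5 CPM, which gave a log2 fold change of 2.90 with an SE of 0.54 (edgeR adjusted p = 0.0052). It has a feature on the other strand over 6.48% of its length, and its unstranded and stranded values were close. In the stranded libraries alone, with only the second glucose library, *mug146* had a log2 fold change of 3.02 (SE 0.955) and was not called. Leaving out the first glucose library ended the calls of all 7 genes of this comparison, and without it 0 members were called higher. Without the second glucose library 2 were, and without the first glucose-deficient library, of batch A, 11 were.

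*mug147* (2.53, SE 0.56, edgeR adjusted p = 0.0108) had 8.64 and 4.42 CPM in glucose, against 20.6 and 63.3 CPM in glucose-deficient cells. *mug182*, which encodes an enzyme that repairs damaged NADH, had a mean of 10.7 CPM ± 0.478 (SD, n = 2) in glucose, and 26.8 and 139 CPM in glucose-deficient cells (2.46, SE 0.55, edgeR adjusted p = 0.0119). In both genes the glucose-deficient values lay above the glucose values, and the second, from batch C, was the higher by far. A non-coding RNA on the other strand of *mug182*, over its whole length, had 10.8 and 4.47 CPM in glucose, against 27.4 and 0.978 CPM in glucose-deficient cells. The orphan *mug143* rose from 9.71 and 12.4 to 20.1 and 41.5 CPM (1.52, SE 0.31, edgeR adjusted p = 0.00705) and the secretory gene *mug33* from 79.5 and 89.5 to 158.5 and 243 CPM (1.051, SE 0.14, edgeR adjusted p = 0.000716). *mug73*, a predicted membrane transporter, fell from 6.33 and 6.83 to 3.76 and 3.21 CPM (-1.08, SE 0.34, edgeR adjusted p = 0.0448), and the call was lost with 4 of 8 alternative settings and on leaving out 11 of the 16 libraries in turn.

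The most *mug* genes changed in glucose-starved cells. Against glucose, 29 of the 75 members were higher (38.7%) and 9 were lower (12%), where 17.9% of protein-coding features were higher and 21.2% lower. Of the 29 members listed by position 11 were higher (37.9%) and 4 lower (13.8%), and of the 24 other *mug*-named genes 0 were higher and 4 lower. Over the 99 genes of both lists, 29.3% were higher and 13.1% lower. The median log2 fold change was 0.62 for the members, 0.60 for those listed by position, -0.65 for the genes outside the list, 0.15 for both together and -0.10 for all protein-coding features. Adding the genes outside the list therefore lowered the median but left a larger share of rises than over all protein-coding features. For the 86 tested *mug*-named genes of the reference annotation the median was -0.004, with 23 higher (26.7%) and 12 lower. Scaling by library totals moved the median of all protein-coding features to -0.46 and that of the members to 0.24, with 25 members called higher and 11 lower. Both glucose-starved libraries lay above both glucose libraries in 48% of members, against 33% of protein-coding features, and below them in 22.7%, against 38.9%. In the stranded libraries alone, 24 of 70 members were higher, all 24 of them among the 29, and 9 were lower, 8 of them among the 9, against 16.7% and 19.7% of all protein-coding features.

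**Figure D3:**
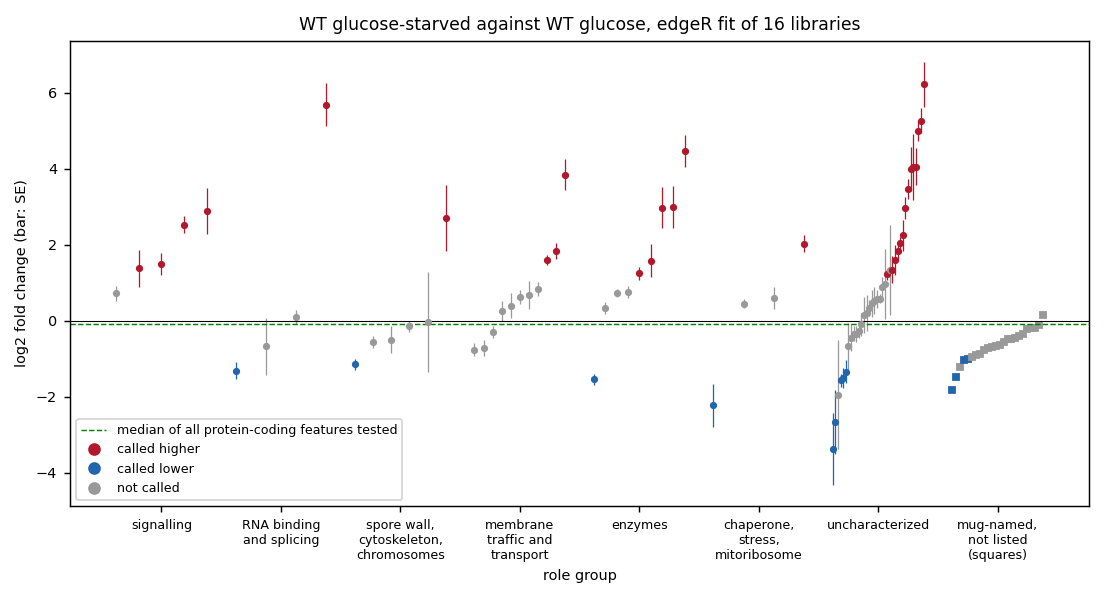
Log2 fold change of each tested *mug* gene in glucose-starved against glucose-grown wild type cells, by role group, with the standard error as a bar, and of the 24 other *mug*-named genes (squares, no error drawn). Values reach from -3.38 (*mug103*) to 6.23 (*mug147*), and 4 of the 5 signalling genes are called higher, while the genes outside the list lie between -1.82 and 0.14.

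Of the 36 uncharacterized genes tested, 14 were called higher (38.9%) and 5 lower (13.9%), against 17.9% and 21.2% of all protein-coding features. *mug147*, a sequence orphan, had 8.64 and 4.42 CPM in glucose, against 398 and 426 CPM in glucose-starved cells, which gave a log2 fold change of 6.23 with an SE of 0.59 (edgeR adjusted p = 4.2e-06). Its 2 glucose-starved libraries, of batches B and C, were close to each other and far above every other library. A non-coding RNA covers 78.3% of it on the other strand and stayed between 1.33 and 19.4 CPM in all libraries. *mug143* rose from 9.71 and 12.4 to 432 and 471 CPM (5.27, SE 0.33, edgeR adjusted p = 2.99e-07), and *dbs2*, which overlaps it on the other strand along its whole length, had 47.0 and 42.0 CPM and then 134 and 205 CPM. *mug168* rose from 23.9 and 25.1 to 774 and 1088 CPM (4.99, SE 0.27, edgeR adjusted p = 1.48e-07), and no feature lies on its other strand. The orphan *mug153* went from 1.11 and 1.61 to 16.3 and 16.7 CPM (4.06, SE 0.48, edgeR adjusted p = 1.9e-05), which is a large fold change at a low level. In these 4 genes the groups did not overlap, and none of the 8 alternative settings and 16 left-out libraries ended their calls.

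*mug146* rose further than in glucose-deficient cells, to 23.4 and 63.9 CPM (4.00, SE 0.57, edgeR adjusted p = 8.32e-05). *mug114* had 22.5 CPM in the first glucose-starved library and 1.75 CPM in the second, against 1.93 and 1.61 CPM in glucose. The second value lies between the glucose values, so the groups overlapped. Its fitted change (4.05, SE 0.87, edgeR adjusted p = 0.00157) depended on the first library, without which it was 1.82 and no longer called. *hxk2* had 1220 and 308 CPM in the same libraries. *mug35*, *mug150*, *mug8*, *mug121*, *mug126*, *mug15*, *mug98* and *mug99* were the other uncharacterized genes called higher, between 1.23 and 3.47 on the log2 scale. Of these, *mug98* overlapped between groups, with 9.85 and 2.41 CPM in glucose, against 5.70 and 4.73 CPM in glucose-starved cells, and it is 1 of the 15 genes whose level followed the library type.

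**Figure D4:**
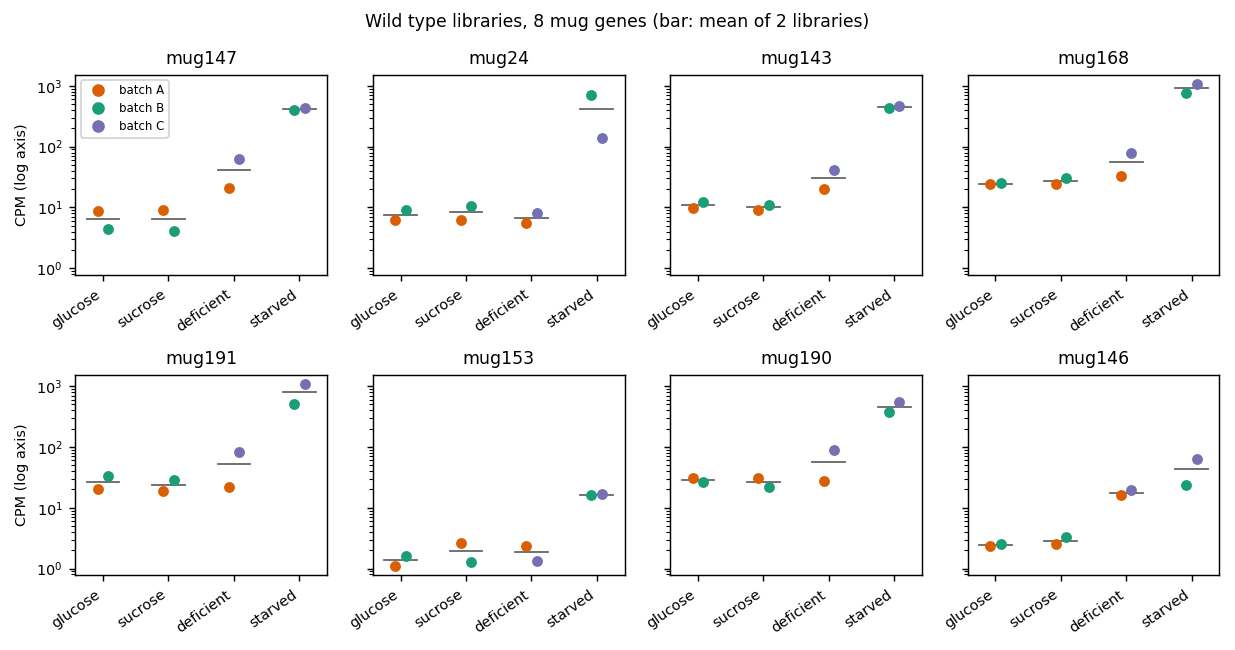
CPM (log axis) of 8 *mug* genes in the wild type libraries of the 4 media, each point a library coloured by batch and each bar the mean of 2 libraries. In glucose-starved cells all 8 lie above every glucose and sucrose library, and *mug24* is the gene whose glucose-starved libraries differ most, 706 against 140 CPM.

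Among genes of RNA binding and splicing, *mug24*, an RNA-binding protein of the RRM type, stood alone. It had 6.13 and 8.95 CPM in glucose, against 706 and 140 CPM in glucose-starved cells (5.69, SE 0.56, edgeR adjusted p = 5.24e-06). Both glucose-starved values were far above glucose, but they differed widely from each other, the batch B library being the higher. *mug151*, a regulator of the HCNGP type, fell from 26.2 and 37.2 to 15.68 and 12.09 CPM (-1.32, edgeR adjusted p = 0.000294). *mug161*, a predicted splicing factor, and *mug28* were not called. In the stranded libraries alone *mug28* had a log2 fold change of -2.31, with 0.803 CPM in glucose and 0.134 and 0.438 CPM in glucose-starved cells.

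Of the enzymes, 5 of 9 rose (55.6%) and 1 fell (11.1%), against 17.9% and 21.2% of all protein-coding features. *mug191*, a predicted mannanase of the fungal cell wall, rose from 20.3 and 32.9 to 512 and 1080 CPM (4.46, SE 0.42, edgeR adjusted p = 3.95e-06), with no feature on its other strand. *mug182* reached 62.7 and 171 CPM (3.00, SE 0.55), and *mug180*, the sterol deacetylase gene *say1*, 127 and 22.5 CPM from 5.602 and 10.95 CPM (2.98, SE 0.53). Both genes were higher in each glucose-starved library than in glucose, but 1 had its larger value in batch C and the other in batch B. The non-coding RNA opposite *mug182* had 0.67 and 0.351 CPM in glucose-starved cells. *mug105*, a predicted protease, was 1.24 higher on the log2 scale. The fifth, *mug62*, was called at 1.58, but its groups overlapped and its stranded values were only 0.804 and 0.351 CPM in glucose-starved cells. *mug71*, the diphthamide synthase gene *dph6* that modifies a translation elongation factor, fell from 60.2 and 63.1 to 18.8 and 27.3 CPM (-1.54, SE 0.15, edgeR adjusted p = 4.68e-06).

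Of the 11 genes of membrane traffic and transport, 3 rose (27.3%, against 17.9% of all protein-coding features) and 0 fell (against 21.2%). *mug190*, the tricalbin *tcb2* that tethers the endoplasmic reticulum to the plasma membrane, rose from 31.2 and 27.0 to 379 and 546 CPM (3.85, SE 0.41, edgeR adjusted p = 9.72e-06). *mug186*, the sorting nexin *snx41*, rose by 1.85 and *mug33* by 1.60 on the log2 scale. In each of the 3 genes both glucose-starved libraries lay above both glucose libraries.

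Of the 5 signalling genes, 4 were called higher and 0 lower, against 17.9% and 21.2% of all protein-coding features, and 2 of the 4 calls, *mug27* and *mug10*, rested on at most 2.61 CPM in stranded libraries. *mug134*, the endosulfine gene *igo1*, had 89.7 and 150 CPM in glucose, against 250 and 568 CPM in glucose-starved cells (1.49, SE 0.29, edgeR adjusted p = 0.000816). *mug51*, a kinase-like protein of the STK19 family, rose from 11.64 and 10.15 to 48.0 and 85.9 CPM (2.53, SE 0.23), and *mug10* was called at 1.38 on 0.869 to 2.54 CPM. The call of *mug27* (2.88, SE 0.61, edgeR adjusted p = 0.00139) rested on 2.61 CPM in 1 stranded library against 0.115 CPM in the stranded glucose library, and its groups overlapped. *mug80*, the cyclin gene *clg1*, had a log2 fold change of 0.72 and was not called.

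Of the 6 members of the spore wall, the cytoskeleton and chromosomes, 1 was called higher and 1 lower (16.7% each), near the 17.9% and 21.2% of all protein-coding features. *mug93*, a TPR repeat protein, was called higher at no more than 0.268 CPM in any stranded library, and *mug176*, a BRCT domain protein, fell from 36.9 and 60.8 to 27.7 and 23.1 CPM (-1.15, SE 0.15). The spore wall assembly genes *mug56* and *mug65* were not called. In the chaperone and stress group, *mug63*, the TLDc domain gene *oxr1*, rose from 16.3 and 25.1 to 96.2 and 84.2 CPM (2.03, SE 0.22), while *mug4* fell from 3.091 and 5.047 to 1.54 and 0.263 CPM (-2.23, SE 0.57, edgeR adjusted p = 0.00479), a call that was lost without the second glucose library.

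Other falls were in uncharacterized genes and mostly at low levels. *mug103* (-3.38, SE 0.95, edgeR adjusted p = 0.00833) went from 2.17 and 0.516 to 0.134 and 0 CPM, so that both glucose-starved libraries were below the floor. Its call was lost without the first glucose or the second glucose-starved library. *mug68* (-2.67, SE 0.83, edgeR adjusted p = 0.0148) had 1.26 CPM in the stranded glucose library and 0.201 and 0 CPM in glucose-starved cells, and its call was lost without that glucose library. *mug125* fell from 12.8 and 20.5 to 5.23 and 6.14 CPM (-1.52, SE 0.26, edgeR adjusted p = 0.000368). *mug106* had 36.9 CPM in the stranded glucose library and 21.6 and 5.08 CPM in glucose-starved cells (-1.34, SE 0.31), against 241 CPM in the unstranded glucose library. Of the UPF0300 family, a set of *S. pombe* specific proteins, *mug132* fell from 27.2 and 28.4 to 9.92 and 8.15 CPM (-1.57, SE 0.17, edgeR adjusted p = 1.14e-05). *mug131* and *mug133* were not called, with at most 0.469 and 2.21 CPM in stranded libraries. Reads that map to several places were counted at each, so the counts of related family members are uncertain. The 37 members not called lay between -1.95 (*mug112*) and 1.34 (*mug128*), and these extremes are genes with at most 0.134 CPM in stranded libraries.

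The direct test between the 2 glycerol media asked whether complete loss of glucose adds to the change, without use of the glucose libraries as the reference. Only batch C holds both glycerol media. The glucose libraries, with the sucrose and mutant ones, therefore still entered the test through the batch term. In glucose-starved against glucose-deficient cells, 27 of 75 members were higher (36%) and 6 lower (8%), with a background of 15% and 18.5%. Of the 29 members listed by position, 9 were higher and 3 lower, and of the 24 other *mug*-named genes 0 were higher and 5 lower. The median log2 fold change was 0.54 for the members, 0.435 for those listed by position and -0.12 for all protein-coding features. It was -0.525 for the other *mug*-named genes and 0.131 for the members and these genes together. For the 86 tested *mug*-named genes of the reference annotation it was -0.075, with 23.3% higher and 11.6% lower. In the stranded libraries alone 20 members were higher, all among the 27, and 3 were lower, 2 of them among the 6.

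*mug24* differed most (5.48, SE 0.57, edgeR adjusted p = 1.21e-05). Its 5.48 and 8.03 CPM in glucose-deficient cells were at the level of glucose, from which they differed by 0.21 on the log2 scale (SE 0.54). *mug168* (4.00, SE 0.26), *mug191* (3.87, SE 0.40), *mug143* (3.75, SE 0.30), *mug147* (3.70, SE 0.52) and *mug190* (3.25, SE 0.40) were also higher. *mug168*, *mug191* and *mug190* had 33.5 and 78.7, 21.7 and 81.5, and 27.0 and 88.1 CPM in glucose-deficient cells, and in each of them the batch A library was at or near its glucose level and the batch C library above it. *mug153* was 3.66 higher (SE 0.47, edgeR adjusted p = 5.52e-05). *mug150*, an orphan, was 3.35 higher (SE 0.30, edgeR adjusted p = 4.5e-06) with 20.1 and 2.73 CPM in glucose-deficient and 53.9 and 44.8 CPM in glucose-starved cells.

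Lower than in glucose-deficient cells were *mug103* (-3.92, SE 0.92, edgeR adjusted p = 0.00322), *mug68* (-2.50), *mug106* (-1.999), *mug4* (-1.93), *mug125* (-1.18) and *mug71* (-1.06). Of these, *mug103* and *mug106* were past both thresholds in the stranded libraries alone. Without the first glucose-deficient library 3 members were lower, and without the first glucose-starved library 10 were. *mug73*, which had fallen in glucose-deficient cells, was 1.48 higher in glucose-starved cells (SE 0.34, edgeR adjusted p = 0.00265), with 7.24 and 9.73 against 3.76 and 3.21 CPM, and with respect to glucose it differed by 0.40 (SE 0.32). *mug146* (23.4 and 63.9 against 16.1 and 19.5 CPM) and *mug182* (62.7 and 171 against 26.8 and 139 CPM) were not called between these media, where they had log2 fold changes of 1.09 (SE 0.49, edgeR adjusted p = 0.0734) and 0.54 (SE 0.49, edgeR adjusted p = 0.359).

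Genes that govern entry into meiosis were read beside the members. *ste11* rose from 30.96 and 29.08 CPM in glucose to 144 and 145 CPM in glucose-deficient cells and had 44.6 and 38.6 CPM in glucose-starved cells, and *mei2* had 17.6 and 13.5, 138 and 102, and 14.5 and 10.8 CPM. Both were highest in glucose-deficient cells among the wild type libraries and lower in glucose-starved than in glucose-deficient cells, by -1.77 (SE 0.21) and -2.97 (SE 0.32) between the glycerol media, each past the threshold in edgeR (adjusted p = 2.67e-05 and 1.66e-05). *mei3*, the inhibitor of the kinase that blocks meiosis, stayed between 0.242 and 2.28 CPM and *mei4* between 1.84 and 3.79 CPM, except for 13.9 CPM of *mei4* in the first glucose-starved library. Both were called higher in glucose-starved than in glucose-grown cells (2.28 and 2.03, edgeR adjusted p = 0.0146 and 0.00964). That library was also the one with the higher *mug24*, *mug114*, *mug27* and *mug180*.

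Of 8 entry regulators tested, 2 were higher (*mei3* and *mei4*) and 1 lower in glucose-starved against glucose-grown cells. The lower was *mmi1*, an RNA-binding protein that removes meiotic transcripts from mitotic cells, which fell from 60.7 and 60.8 to 17.9 and 16.1 CPM (-1.91, SE 0.17, edgeR adjusted p = 3.47e-06). Of 15 genes of recombination and cohesion, 4 were higher (*rec6*, *rec8*, *rec24* and *meu13*) and 1 lower (*rec10*), and of 18 genes of the divisions and spore formation 1 was higher (*isp3*, of the spore wall) and 2 lower (*meu14* and *sgo1*). The 24 genes named *meu*, for meiotic expression upregulated, had 8 higher and 5 lower, 33.3% and 20.8%, with a median log2 fold change of -0.01. The shares over all protein-coding features were 17.9% higher and 21.2% lower. The genes of these lists were chosen from textbook knowledge with earlier results of these data known.

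The libraries labelled *scr1*- asked which *mug* genes depend on the repressor while sugar is present. In them *mug114* and *mug146* were higher than in wild type cells both in glucose and in sucrose, 2.67% of 75 members in each medium, where 1.21% and 0.954% of protein-coding features were higher. In glucose 0 members were lower by edgeR and 0 by DESeq2, with 3 at an unadjusted p-value under 0.05, and in sucrose 0 by edgeR and 1 by DESeq2, with 4 at that p-value. The background for lower genes was 0.0974% in both media. The remaining members had log2 fold changes between -0.92 and 0.90 in glucose and between -1.02 and 0.95 in sucrose, with *mug94* lowest and *mug8* highest in both media. Neither *mug114* nor *mug146* is among the members listed by position, of which none was called.

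*mug146* had 2.32 and 2.52 CPM in wild type cells in glucose. In the libraries labelled *scr1*- it had 14.83 and 16.04 CPM with the disruption and 13.5 and 17.9 CPM with the deletion (2.61, SE 0.50, edgeR adjusted p = 0.0154). In sucrose it had 2.49 and 3.26 CPM in wild type cells, 12.3 and 37.7 CPM with the disruption and 18.6 and 16.6 CPM with the deletion (2.78, SE 0.50, edgeR adjusted p = 0.0112). All 8 mutant libraries lay above all 4 wild type ones in glucose and sucrose. For the disruption this held within batches A and B, which hold wild type libraries of the same sugar. The deletion libraries have no such wild type library in their batch. The highest value, 37.7 CPM, came from the second disruption library in sucrose, which stood apart by *map3* and *mfm2*. Without both second disruption libraries the log2 fold changes were 2.21 in glucose and 1.97 in sucrose, both still called (edgeR adjusted p = 0.00905 and 0.0227). In the stranded libraries alone they were 2.69 and 2.93 but not called, with adjusted p-values of 0.287 and 0.206, and that fit holds 1 wild type library per medium. The call in glucose was also lost without either wild type glucose library or without the first disruption library, and that in sucrose without either wild type sucrose library.

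*mug114* had 1.93 and 1.61 CPM in wild type cells in glucose. With the disruption it had 106 CPM in the unstranded and 12.7 CPM in the stranded library, and with the deletion 11.5 and 11.6 CPM (4.72, SE 0.84, edgeR adjusted p = 0.00949). In sucrose it had 6.37 and 2.52 CPM in wild type cells, 138 and 11.2 CPM with the disruption and 13.81 and 13.96 CPM with the deletion (3.77, SE 0.77, edgeR adjusted p = 0.0258). Every mutant library therefore lay above the wild type libraries of its sugar, but the size of the difference changed with library type. Only the disruption has wild type libraries of its own batch in the same sugar. Within batch A the difference of log2(CPM + 1) between disruption and wild type in glucose was 5.18, and within batch B it was 2.40. *hxk2* on the other strand had 2274 to 2485 CPM in the mutant libraries in glucose against 878 and 773 CPM in wild type cells, and reads of both genes cannot be told apart in batch A. Blocking on the replicate number instead of batch gave adjusted p-values of 0.21 in glucose and 0.308 in sucrose. Without both second disruption libraries the call held, at 5.71 in glucose and 4.73 in sucrose (edgeR adjusted p = 4.99e-05 and 0.000149). Without the first wild type library of the medium, of batch A, it did not.

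*mug94*, a sequence orphan, had the lowest log2 fold change of the members in both media. It had 7.53 and 6.25 CPM in wild type cells in glucose and 3.532 to 4.165 CPM in the 4 mutant libraries (-0.92, SE 0.26, edgeR adjusted p = 0.0978). In sucrose it had 5.77 and 7.80 CPM in wild type cells and 3.13 to 4.47 CPM in the mutant (-1.02, SE 0.26, edgeR adjusted p = 0.0698). The groups did not overlap in either medium, but neither difference passed the adjusted threshold. *mug138*, now *iph1*, was past the adjusted p-value in both media (0.0322 and 0.0389, edgeR) with changes of -0.41 and -0.41 that are short of the fold change minimum, and *mug161* was 0.57 and 0.52 higher with adjusted p-values of 0.094 and 0.111. Without both second disruption libraries, *mug94* had changes of -1.03 and -1.12 with adjusted p-values of 0.189 and 0.162, *mug138* -0.52 and -0.51 with 0.0448 and 0.0588, and *mug161* 0.52 and 0.50 with 0.335 and 0.277 (edgeR).

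**Figure D5:**
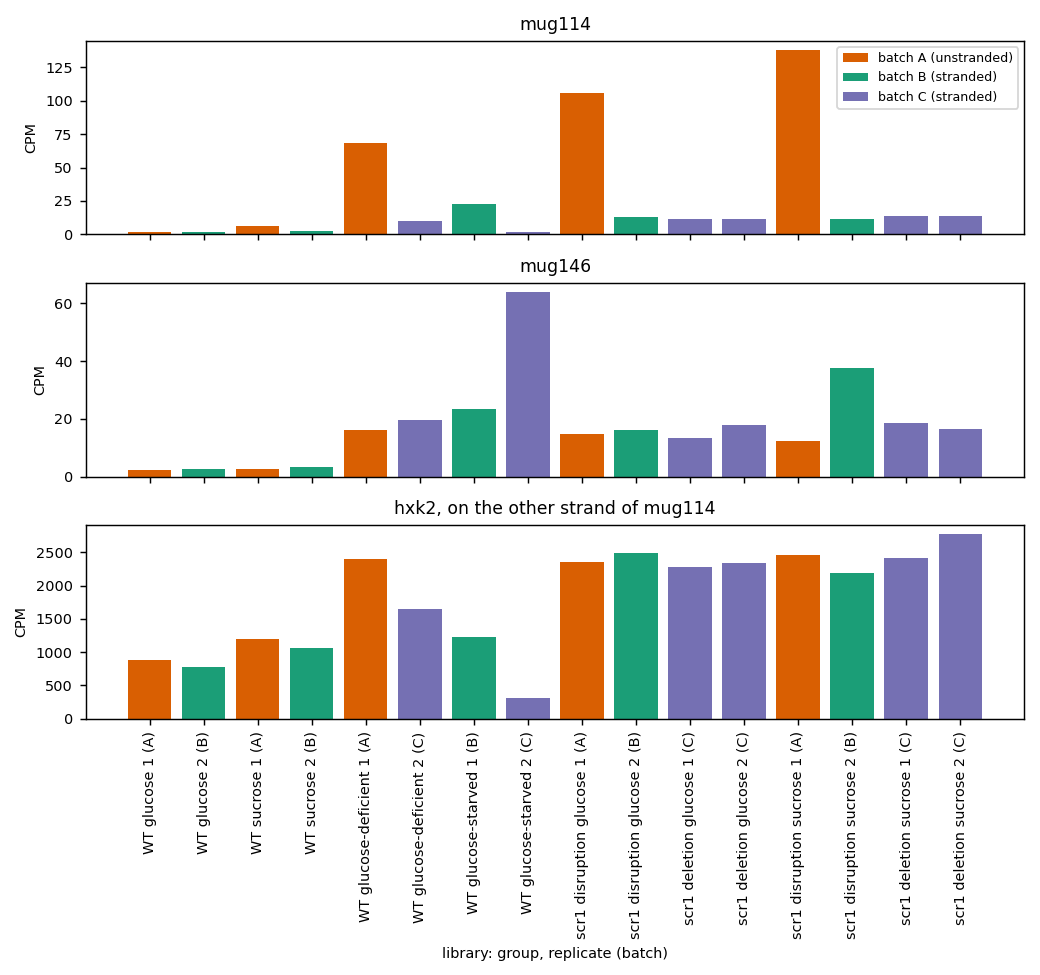
CPM of *mug114*, *mug146* and *hxk2* (on the other strand of *mug114*) in each of the 16 libraries, one bar per library, coloured by batch. Every library labelled *scr1*- has more *mug146* (12.3 to 37.7 CPM) than the wild type libraries in glucose and sucrose, and *mug114* is tallest in the 3 unstranded libraries in which *hxk2* is also high.

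Whether loss of Scr1 acts differently in the 2 media was tested as an interaction. It called 0 of 75 members, with 0 at an unadjusted p-value under 0.05 and 0 by DESeq2, against 0.0195% of protein-coding features. Without both second disruption libraries it also called 0 members, with 1 at an unadjusted p-value under 0.05 (*mug114*). The entry regulators *ste11* and *mei2* were higher in the mutant in glucose, by 1.57 (SE 0.18) and 3.11 (SE 0.29) with edgeR adjusted p-values of 0.000389 and 8.3e-05, and *mei2* also in sucrose, by 2.31 (SE 0.28, edgeR adjusted p = 0.000691). Without both second disruption libraries these values were 1.55, 3.23 and 2.52, all still called. Of the 8 members with the largest rises in glucose-starved cells, *mug114* and *mug146* were thus the 2 called higher in the mutant, and the other 6 were not called. *mug147* had 3.02 to 9.61 CPM, *mug24* 8.35 to 11.5 CPM, *mug168* 25.4 to 31.7 CPM, *mug191* 24.3 to 32.6 CPM, *mug143* 6.46 to 11.2 CPM and *mug153* 0.719 to 3.78 CPM over the 8 libraries labelled *scr1*-.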

How the data were processed

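RNA was ribosome-depleted and sequenced from 16 cultures. The deposited values are counts, for which the authors trimmed reads with Cutadapt 1.9.1, aligned them with TopHat2 2.1.1 to ASM294v2.25 and counted them with featureCounts 1.5.2, strand-specifically for stranded libraries, so that a read that maps to several places or overlaps several features was counted for each of them. The counts were deposited without normalization. Columns with the authors' own comparisons were not used.

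Counts were analysed with edgeR 4.0.16 in R 4.3.3, with TMM scaling, a filter on low counts (filterByExpr, minimum count 10), 6 groups in which both *scr1*- genotypes were pooled per medium, and batch as a term (8 residual degrees of freedom, common dispersion 0.0337). The quasi-likelihood test was adjusted by the Benjamini-Hochberg method over 6691 features, 5134 of them protein-coding. Standard errors were derived from the F statistic of the test (log2 fold change over its square root). CPM are TMM-scaled. Tables and sequences were handled in Python 3.11.15. The test was also run on simulated counts with planted rises and no batch differences. That run does not cover effects of batch or library type.

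The members and all gene lists were chosen with earlier results of these data known. Named genes were the members past the threshold where there were 14 or fewer, otherwise the 8 largest rises and the 6 largest falls, with the 5 highest and 5 lowest members per kilobase, *mug27*, *mug28*, *mug134*, the UPF0300 family, and *ste11*, *mei2*, *mei3* and *mei4*. Others are examples. Alternatives were DESeq2 1.42.0, its size factors, library totals, no filter on low counts, no fold change minimum, no batch term, a block on the replicate number, stranded or wild type libraries alone, each *scr1*- genotype alone, and leaving out each library. Leaving out members whose level followed the library type, differences within a batch, and leaving out both second disruption libraries were chosen after seeing the data. The strains given for some libraries differ between the sample descriptions and the study's own strain list, and groups follow the sample descriptions.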

Additional observations from a re-analysis of the deposited data

Results flagged for a closer look

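In the groups of 4 mutant libraries, 30 of the named genes were screened in glucose and in sucrose for a library that stands apart (Dixon's ratio of the gap to the range, against its 95% critical value), which is 60 groups. Chance flags about 1 in 20 groups of like libraries, and 17 groups were flagged in 10 genes. Each group held the unstranded disruption library of batch A beside stranded ones. *mug27*, *mug28*, *mug68*, *mug106* and *mug131* were already known to follow the library type. Most genes were also flagged in both sugars, so the count cannot be set against chance. In 15 of the 17 the library that stood apart was the unstranded disruption library of batch A. The ratios in glucose and sucrose were 0.998 and 0.987 for *mug27*, 0.997 and 0.996 for *mug28*, 0.996 and 0.987 for *mug68*, 0.95 and 0.904 for *mug106*, 0.987 and 0.978 for *mug114*, 0.998 and 0.996 for *mug131*, and 0.847 and 0.866 for *mug133*. *mug150* was flagged in sucrose alone, at 0.953. The other 2 flags were *mug4* in glucose, where the second deletion library had 7.22 CPM and the other mutant libraries 4.46 to 4.85 CPM (0.86), and *mug125* in glucose, where the second disruption library had 19.4 CPM and the others 13.23 to 13.95 CPM (0.884). Library type and the disruption strain's first replicate cannot be told apart within these groups.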

How the results depend on the processing

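With 2 libraries per wild type medium, single libraries carried much of the weight, and a fit that left 1 in a group assumed that it varied like the others. For glucose-deficient against glucose cells, 6 members were higher and 1 lower. The higher count was 11 with no fold change minimum, 10 with DESeq2 and 1 with wild type libraries alone. The lower count was 6 with no fold change minimum, 3 with library totals, 2 with stranded libraries alone, and 0 with DESeq2's size factors, with no batch term, with the replicate block and with wild type libraries alone. For glucose-starved against glucose cells, the 9 lower members were 4 with wild type libraries alone. For glucose-starved against glucose-deficient cells, 27 higher became 17 with no batch term, and 6 lower became 15 with no fold change minimum and 3 with no batch term, with stranded libraries alone and with wild type libraries alone. In *scr1*- against wild type cells, the 2 higher members became 1 with no batch term and with the replicate block, and 0 with stranded libraries alone and with the disruption alone, in glucose and in sucrose. The 0 lower members became 1 with no fold change minimum and with library totals in both media, with the deletion alone in glucose and with DESeq2 in sucrose. Leaving out each of the 16 libraries gave 0 to 11 higher and 0 to 3 lower members in glucose-deficient cells, 25 to 31 and 7 to 13 in glucose-starved cells, 21 to 27 and 3 to 10 between the glycerol media, 0 to 2 and 0 to 1 for *scr1*- in each sugar, and 0 throughout for sucrose against glucose and for the interaction. The causes were not tested. Leaving out the 15 members whose level followed the library type, chosen after seeing the data, left 25 higher and 7 lower in glucose-starved cells. Leaving out both second disruption libraries, also chosen after seeing the data, left 2 higher and 0 lower members for *scr1*- in each sugar. Of 316 values of named genes under these settings 268 kept their call, 48 lost it and 0 reversed, and of 624 values without 1 library 575, 49 and 0 did.

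The replicate numbers were not taken to pair the libraries. Over 28 pairs of groups, the correlation of same-numbered deviations was between -0.09 and 0.97, and it was above 0.1 in 16. It was 0.86 or more between the 5 groups whose first library is of batch A, so batch and number cannot be told apart there, and 0.29 or less with the glucose-starved group, whose first library is of batch B. With the replicate number as a block, 34 of 39 named values kept their call. Those lost were *mug73* in glucose-deficient cells (-0.92) and *mug114* in glucose-deficient (3.70), glucose-starved (1.84) and *scr1*- cells (3.72 in glucose, 2.92 in sucrose).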
